A study of Mus musculus with 24 samples.

Results

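The genes described here are 10 genes of the NRF2 antioxidant pathway and its redox enzymes, Nfe2l2, Keap1, Nqo1, Gclm, Gclc, Txnrd1, Srxn1, Prdx1, Gsr and Sod2, taken by symbol from a table of 43430 gene IDs. All 10 were matched and all 10 passed the filter on low counts, so no member was lost. They were measured by RNA-seq in 24 libraries of alveolar macrophages, the macrophages of the airspaces, isolated by sorting from lung tissue of C57BL/6J mice. The series text asked how cells from old mice differ from those of young mice before and after asbestos, a mineral fibre that scars the lung.

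There were 6 groups of 4 libraries. Young naive Siglec F-high and old naive Siglec F-high cells came from mice that had received no asbestos. Young and old asbestos Siglec F-high, and young and old asbestos Siglec F-low, came from mice 28 days after asbestos. Young mice were 8 to 12 weeks and old mice over 18 months of age by the sample labels, while the series text gives 2 and 18 months. No group carried a transgene, a deletion or a drug by its labels. The text speaks of tissue-resident and monocyte-derived cells, whereas the labels name the sorts by Siglec F, a surface receptor of alveolar macrophages. The labels do not say whether a library holds 1 mouse or a pool, or whether both asbestos sorts come from the same mice, so p-values measure the spread between these libraries.

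Of the libraries, 22 held 13423080 to 18124526 counts on 17069 to 18820 genes, with 0.255 to 0.617% of counts on rRNA-related genes. The other 2 stood apart. They were replicate 3 of old asbestos Siglec F-high cells, with 3894699 counts of which 54.1% were rRNA-related, and replicate 3 of young asbestos Siglec F-high cells, with 11889517 counts on just 12528 genes. Calls are therefore given from a fit of all 24 libraries and from a fit of the 22 without them. Siglecf, Marco, Pparg and the other alveolar macrophage markers had counts in every library. The summed level of 8 monocyte-derived macrophage markers was 3470 to 5762 CPM (counts per 1000000 after TMM scaling of the libraries) in the Siglec F-low sorts and 409 to 1796 CPM in the Siglec F-high sorts. Of these 8, Ccr2 and Ly6c2 were not called between sorts at either age in either fit. The summed alveolar macrophage markers were at 36220 to 66460 CPM in Siglec F-low and 14470 to 39430 CPM in Siglec F-high sorts. Chil3 had the highest median of them, 21951 CPM, while Siglecf was called lower in Siglec F-low at both ages. Markers of B cells, T cells and eosinophils summed to at most 43.1, 19.1 and 5.71 CPM. In bulk samples, fewer cells of a type and less RNA per cell cannot be told apart.

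NRF2, encoded by Nfe2l2, is a transcription factor that binds antioxidant response elements in the promoters of genes for glutathione synthesis, thioredoxin recycling and quinone reduction. KEAP1 holds it in the cytoplasm and hands it to a ubiquitin ligase until oxidants or electrophiles modify KEAP1. The control acts mainly on NRF2 protein, so the transcript of Nfe2l2 need not move with its activity. Sod2 is a mitochondrial superoxide dismutase best known as an NF-kB target.

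The core letters of the antioxidant response element, TGACNNNGC, were searched for on both strands in RefSeq promoters of GRCm38.p6, from 250 bases before to 50 bases after each annotated start. The table held 10 promoters of 8 members, and 5 promoters of 5 members had a match, compared with 12.4% of all 32851 promoters. The members were listed as genes of the NRF2 pathway, so a higher share among them is not read as a result. A match describes letters and not a bound site, and the RNA data do not measure binding. The matches are shown because they are the letters NRF2 is known to read, with the matched bases in capitals, 5′ to 3′ on the strand of the gene. Those of Gclm, Prdx1, Txnrd1 and Srxn1 lie on the opposite strand and so read GCNNNGTCA. The stretches are chr2:75704875-75704913 for Nfe2l2, on the minus strand, chr3:122245403-122245451 for Gclm, chr4:116685446-116685494 for Prdx1, chr10:82859094-82859142 for Txnrd1 and chr2:152105542-152105570 for Srxn1.
Nfe2l2: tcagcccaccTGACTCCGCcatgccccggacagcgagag
Gclm: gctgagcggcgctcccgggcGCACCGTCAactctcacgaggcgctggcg
Prdx1: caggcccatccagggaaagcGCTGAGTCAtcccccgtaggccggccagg
Txnrd1: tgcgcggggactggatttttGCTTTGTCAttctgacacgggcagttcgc
Srxn1: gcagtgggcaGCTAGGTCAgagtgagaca
The matches began 240 bases before the start of Nfe2l2, 134 before that of Gclm, 133 before that of Prdx1 and 92 before 1 annotated start of Txnrd1, while that of Srxn1 began 28 bases past its start. The Prdx1 match overlaps an AP-1 site, TGACTCA on the other strand. Such a site is held on either strand by 5.2% of all promoters and by 2 of the 10 member promoters. Nqo1, Keap1 and Sod2 had no such letters in this window, and Gclc and Gsr are named only.

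On a scale per length (RPKM, CPM per kilobase of annotated exon), the members spanned a wide range of levels in the 22 libraries. Prdx1, a peroxiredoxin that reduces peroxides, had a median of 169 RPKM, and Gsr, which regenerates reduced glutathione, 127 RPKM. Nfe2l2 followed at 57.4, Txnrd1 at 32.4 and Srxn1 at 24.4 RPKM. Gclc at 11.3, Keap1 at 9.34, Sod2 at 9.06 and Gclm at 7.27 RPKM came next, with ranges over libraries that overlapped between neighbours. The annotated exons of Sod2 add up to 10008 bases, more than those of any other member, and its level per length depends on that length. Nqo1, the quinone reductase often used as a readout of NRF2, was last at 1.40 RPKM, with 0.164 to 2.43 RPKM over the libraries. The ranges of Prdx1 and Gsr overlapped too, and so did those of Txnrd1 and Srxn1, while Nfe2l2 overlapped neither neighbour. In CPM, the highest of the 6 group means was 3.73 times the lowest for Nqo1, 2.01 times for Srxn1 and 1.77 times for Sod2. For the other 7 members it was 1.18 to 1.36 times.

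**Figure D1:**
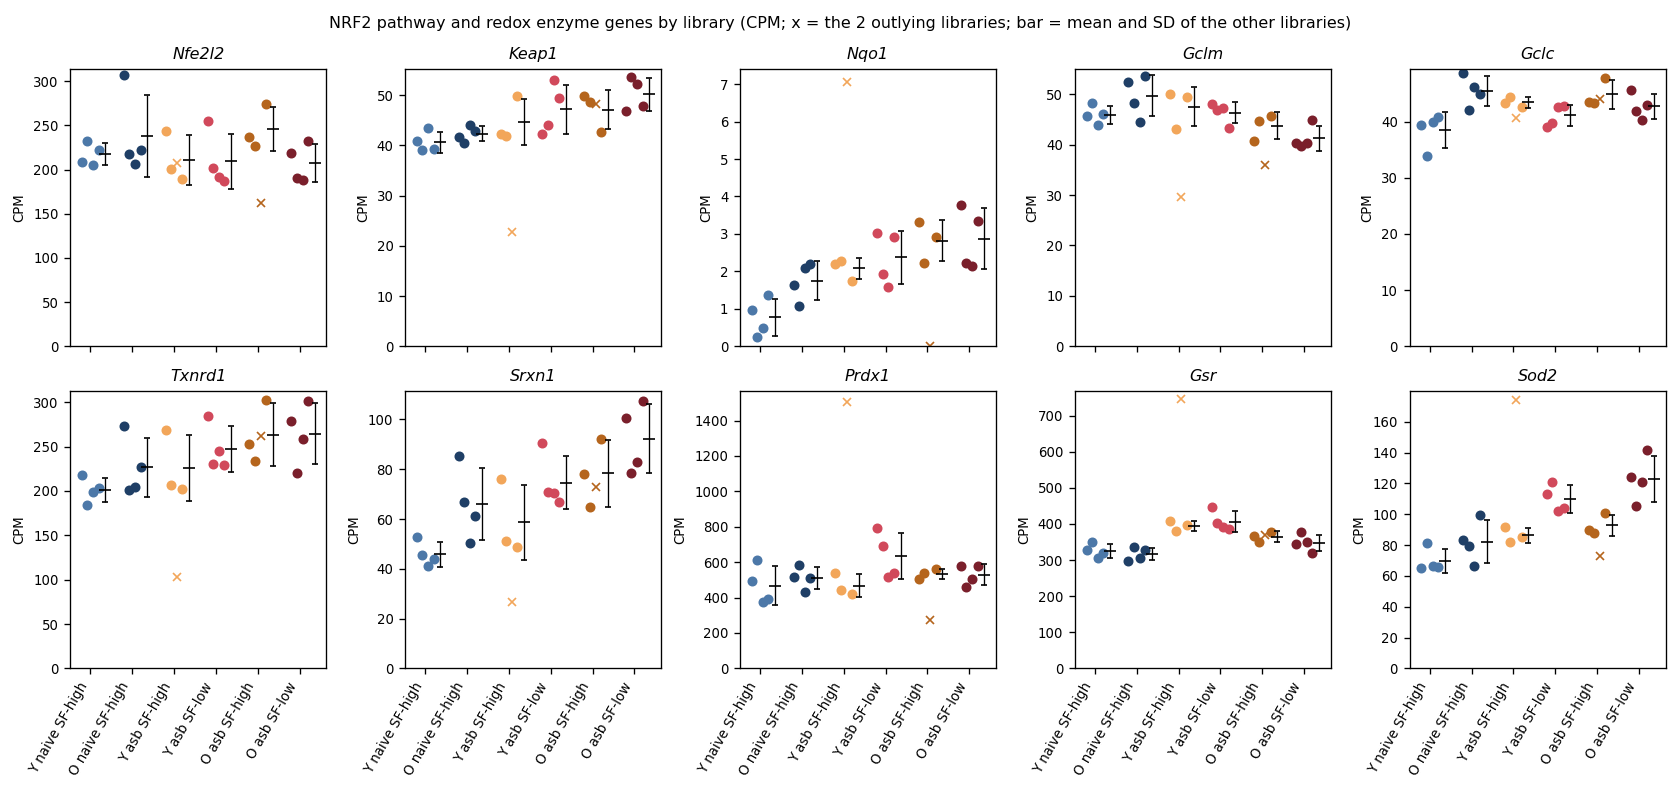
CPM (y axis, from 0) of the 10 members in each library of the 6 groups (x axis; Y young, O old, asb asbestos, SF Siglec F). Points are libraries, crosses the 2 outlying ones, and bars the mean and SD of the rest. The outlying young library stands at 1505 CPM for Prdx1 and 746 CPM for Gsr, above every other library.

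Few members passed the test in any comparison. With 24 libraries edgeR called 1 of 70 pairs of a member and a comparison at an adjusted p under 0.05, which is 1.43% of them, compared with 2.86% over all genes tested. With 22 libraries it called 6, or 8.57%, compared with 7.91% over all genes. These shares lie near or below the background. The 95% interval of the log2 fold change lay within 1 either side of 0 for 58 pairs with 24 libraries and for 66 with 22, and within 0.5 for 33 and 47. The median log2 fold change of the members was 0.0088 to 0.154 over the 7 comparisons with 24 libraries and -0.0085 to 0.167 with 22, while that of all genes was -0.0084 to 0.036 and -0.014 to 0.0069. Apart from Nqo1, the largest log2 fold change in size was 0.64 with 24 libraries and 0.53 with 22.

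In old against young naive Siglec F-high cells, 0 of 10 members were called with 24 libraries, where edgeR called 2.03% of all genes, and 2 with 22 libraries, where it called 8.03%. Those 2 were Gclc and Srxn1, both higher in old. DESeq2 called 1 member here and limma voom 3, and 3 members had an unadjusted p under 0.05 in edgeR with 24 libraries. For the comparisons of 2 groups, counts from DESeq2, limma voom or before adjustment are given without the share of all genes. They are therefore not read as results about the members.

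In old against young asbestos Siglec F-high cells, edgeR called 0 members in both fits, with 4.76 and 7.32% of all genes called. DESeq2 called 0 and limma voom 1, and 3 members had an unadjusted p under 0.05 with 24 libraries and 1 with 22. In old against young asbestos Siglec F-low cells it called 0 members with 24 libraries (1.29% of all genes) and 1, Gsr, lower in old, with 22 (7.21%). There DESeq2 called 0 and limma voom 1, and 0 members had an unadjusted p under 0.05 with 24 libraries.

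In asbestos against naive young Siglec F-high cells edgeR called Nqo1 with 24 libraries (1.90% of all genes called) and Nqo1 and Gsr with 22 (5.06%), each higher after asbestos. DESeq2 and limma voom each called 3 members. In the same comparison of old cells it called 0 members in both fits, with 0.780 and 4.12% of all genes called. DESeq2 and limma voom also called 0 there, and 0 members had an unadjusted p under 0.05 with 24 libraries and 2 with 22. The comparisons within 1 age and across ages share groups, so their values are not independent.

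In young asbestos cells, for Siglec F-low against Siglec F-high, edgeR called 0 members in both fits, with 4.99 and 12.0% of all genes called. DESeq2 called 0 and limma voom 1, and 1 member had an unadjusted p under 0.05 with 24 libraries and 2 with 22. In the old sorts it called 0 members with 24 libraries (4.30%) and 1, Sod2, higher in Siglec F-low, with 22 (11.6%). DESeq2 called 0 members of the old sorts and limma voom 1, and 1 member fell below 0.05 before adjustment with 24.

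Whether age changed the response to asbestos, or the difference between sorts, was asked by interaction. With 24 libraries edgeR called 0% of genes for age by asbestos and 0% for age by sort. Before adjustment 1050 and 650 of the 13467 genes tested fell below 0.05. The fit of 22 libraries called 2 genes, 0.0147%, in each, with 703 and 870 of 13629 below 0.05 before adjustment. A share of about 0.05 of the genes tested falls there with no interaction at all, so these numbers are not read as a signal. DESeq2 called 0 and 6 genes, and limma voom 3 and 15. No member was called in either interaction by edgeR, DESeq2 or limma voom, and at an unadjusted p under 0.05 edgeR had 1 and 0 members with 24 libraries and 0 and 1 with 22. The lowest age by asbestos value was that of Nqo1, -1.54 with an interval of -3.01 to -0.07 and an edgeR adjusted p of 0.587 with 24 libraries, and -0.72 (-1.81 to 0.36) with 22.

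**Figure D2:**
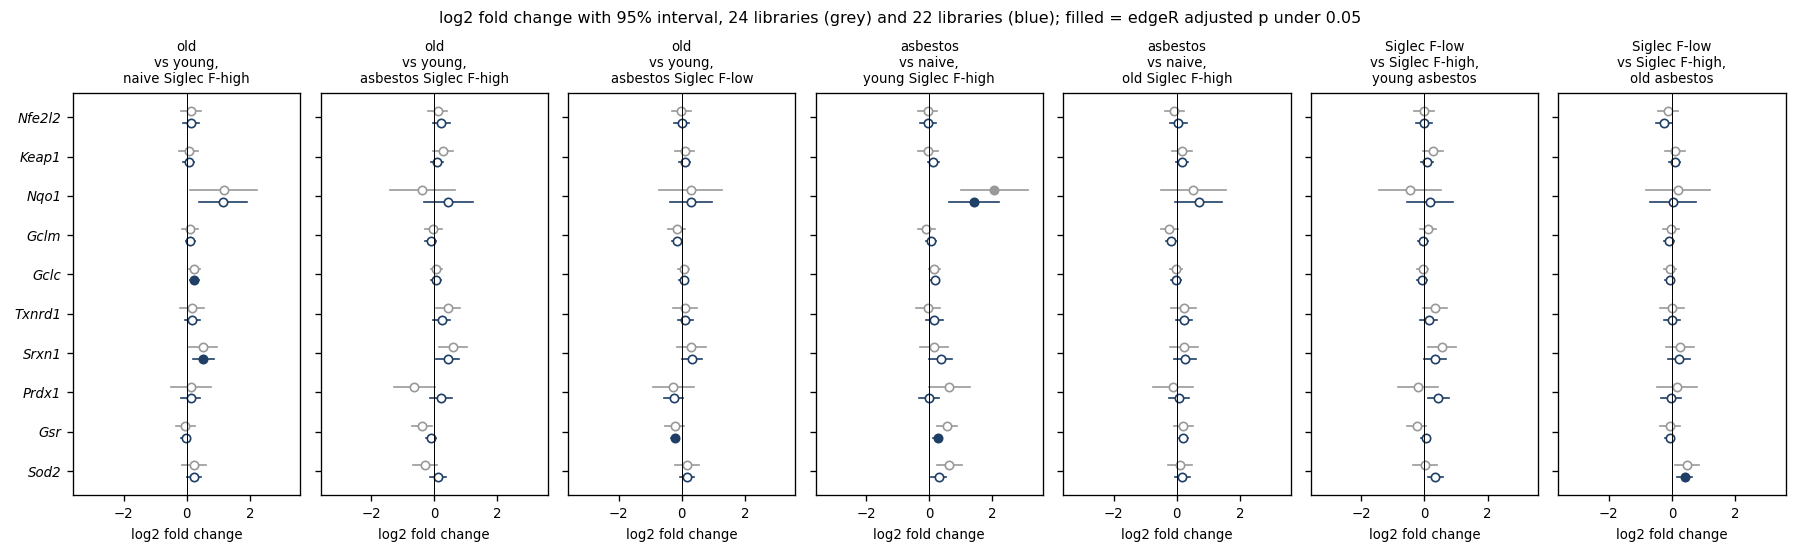
Log2 fold change (x axis) with its 95% interval for the 10 members (rows) in the 7 comparisons of 2 groups (panels). Grey is the fit of 24 libraries, blue that of 22, and filled points have an edgeR adjusted p under 0.05: 1 in grey and 6 in blue.

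The regulator itself varied little. Nfe2l2 (ENSMUSG00000015839, chromosome 2, 75675513 to 75704641, minus strand) was at 209, 233, 206 and 222 CPM in young naive libraries. In old naive libraries it was at 307, 218, 207 and 222 CPM, where replicate 1 alone lay above the young range. After asbestos the 22-library means were 211 ± 28.4 CPM (SD, n = 3) in young and 246 ± 25.2 CPM (n = 3) in old Siglec F-high cells. Siglec F-low cells had 209 ± 31.5 CPM (n = 4) in young and 208 ± 21.2 CPM (n = 4) in old. The groups overlapped in every comparison, and the log2 fold changes of Nfe2l2 with 22 libraries ran from -0.25 to 0.23, and with 24 from -0.12 to 0.13. The lowest of the former, Siglec F-low against Siglec F-high in old cells, had an interval of -0.51 to 0.01.

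Keap1 (ENSMUSG00000003308, chromosome 9, 21229730 to 21239361, minus strand), the sensor that restrains NRF2, had group means of 40.7 to 50.2 CPM with 22 libraries. Young naive cells were at 40.7 ± 2.09 CPM and old asbestos Siglec F-low cells at 50.2 ± 3.35 CPM (SD, n = 4 each), and these 2 groups are not a comparison of the design. In the comparisons made, the log2 fold change of Keap1 was 0.06 to 0.16 with 22 libraries and -0.05 to 0.27 with 24, and groups overlapped in each. The outlying young library held 22.7 CPM, below the 41.8 to 49.96 CPM of the other 3 libraries of its group. Exons of Keap1 overlap those of an antisense gene, Gm16754, whose median count was 15 next to 788 for Keap1, and the strand setting of the counting is not given in the sources used here.

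Nqo1 (ENSMUSG00000003849, chromosome 8, 107388225 to 107403206, minus strand) was the member with the largest single change and the lowest level. Young naive libraries held 19, 4, 10 and 25 counts, or 0.978, 0.255, 0.486 and 1.36 CPM. Young asbestos Siglec F-high libraries held 2.20, 2.29, 7.06 and 1.75 CPM, all above the young naive ones, with the outlying library at 7.06. Nqo1 rose after asbestos in young cells, by 2.06 ± 0.51 on the log2 scale (SE, edgeR adjusted p 0.0369) with 24 libraries and by 1.41 ± 0.38 (0.0328) with 22. The call was lost without young naive replicates 1, 2 or 3 (edgeR adjusted p 0.0640, 0.120 and 0.156). It was also lost without young asbestos Siglec F-high replicate 3, at 1.42 and 0.0826, and when the 2 groups were fitted alone, at 0.579. Leaving out young asbestos Siglec F-low replicate 2, a library outside the 2 groups compared, lost it as well, at 2.06 and an edgeR adjusted p of 0.05. In the 22-library fit it was called in 17 of 22 fits that left out 1 more library. It was lost there without young naive replicates 2 or 3 or any of the 3 young asbestos Siglec F-high libraries.

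In old naive libraries Nqo1 was at 1.63, 1.07, 2.10 and 2.1903 CPM, of which 1 overlapped the young naive range. The log2 fold change, old against young, was 1.17 with an interval of 0.41 to 1.93 with 22 libraries, and the edgeR adjusted p was 0.0519, while limma voom called it at 0.0209. With 24 libraries the value was also 1.17, with an interval of 0.11 to 2.23 (edgeR adjusted p 0.469). Old asbestos Siglec F-high libraries held 3.32, 2.23 and 2.91 CPM, and replicate 3 held 0 counts, which at its depth allows up to 2.45 CPM (3 counts, for counting error only). Siglec F-low libraries were at 1.59 to 3.04 CPM in young and 2.14 to 3.77 CPM in old, a range shared with the asbestos Siglec F-high groups. Old against young after asbestos, the log2 fold changes were 0.44 in Siglec F-high and 0.29 in Siglec F-low cells with 22 libraries, both uncalled. With 24 they were -0.38 and 0.28, also uncalled, so the sign in Siglec F-high cells turned with the 2 outlying libraries. The young naive group held the lowest mean of Nqo1, 0.768 ± 0.494 CPM (SD, n = 4).

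Glutathione synthesis starts with glutamate-cysteine ligase, whose catalytic subunit is Gclc and whose modifier subunit is Gclm. Gclc (ENSMUSG00000032350, chromosome 9, 77754535 to 77794485, plus strand) was at 39.5, 33.8, 39.8 and 40.9 CPM in young naive and 48.7, 42.1, 46.1 and 44.9 CPM in old naive libraries, with no overlap. It rose with age there by 0.24 ± 0.07 (SE) on the log2 scale with 22 libraries, a 1.18-fold change (edgeR adjusted p 0.0310). With 24 libraries the value was also 0.24, ± 0.08, and was not called (edgeR adjusted p 0.239). The call was lost without young naive replicate 2 (edgeR adjusted p 0.0878) or without old naive replicates 1, 3 or 4 (0.102, 0.0668 and 0.0579). In the 6 other comparisons its log2 fold change was -0.08 to 0.17 with 22 libraries and -0.07 to 0.15 with 24. The 5 groups other than young naive had means of 41.1 to 45.4 CPM.

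Gclm (ENSMUSG00000028124, chromosome 3, 122245557 to 122270732, plus strand) was not called in any comparison. Its group means were 41.3 to 49.8 CPM with 22 libraries, the lowest in old asbestos Siglec F-low and the highest in old naive cells. In old naive Siglec F-high cells it was at 49.8 ± 4.13 CPM (SD, n = 4), against 43.8 ± 2.63 CPM (n = 3) after asbestos. That log2 fold change was -0.18 with an interval of -0.34 to -0.02 (edgeR adjusted p 0.212) with 22 libraries and -0.24 (-0.50 to 0.03) with 24. An antisense transcript, Gm17494, overlaps its exons and had a median count of 6 next to 779 for Gclm.

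Gsr (ENSMUSG00000031584, chromosome 8, 33652523 to 33698163, plus strand), glutathione reductase, was at 328, 350, 305 and 319 CPM in young naive libraries. In young asbestos Siglec F-high libraries it was at 407, 381, 746 and 396 CPM, all above the naive range, with the outlying library highest. Gsr rose after asbestos in young cells by 0.27 ± 0.07 (SE) on the log2 scale with 22 libraries (edgeR adjusted p 0.0189). With 24 libraries the value was 0.57 ± 0.15 (edgeR adjusted p 0.0533). Without 1 more library the 22-library call was lost in 4 of 22 fits, those without young naive replicates 3 or 4 or young asbestos Siglec F-high replicates 1 or 4.

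Old naive libraries had Gsr at 298 to 335 CPM, and old asbestos Siglec F-high libraries at 349 to 378 CPM, again without overlap. The log2 fold change was 0.21 in both fits, uncalled (edgeR adjusted p 0.844 with 24 and 0.0927 with 22 libraries). In Siglec F-low cells Gsr was at 447, 401, 391 and 386 CPM in young and 343, 377, 349 and 321 CPM in old libraries, without overlap. The old-minus-young difference was -0.22 ± 0.06 on the log2 scale and called (edgeR adjusted p 0.0351) with 22 libraries, and -0.23 ± 0.15 (0.922) with 24. That call was lost in 5 of 22 fits without 1 more library, those without young asbestos Siglec F-low replicates 1 or 2 or old asbestos Siglec F-low replicates 1, 3 or 4.

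Txnrd1, Srxn1 and Prdx1 work in 1 cycle, in which thioredoxin reductase keeps thioredoxin reduced, peroxiredoxin reduces peroxides and sulfiredoxin repairs overoxidised peroxiredoxin. Txnrd1 (ENSMUSG00000020250, chromosome 10, 82833951 to 82897712, plus strand) was at 201 ± 13.9 CPM (SD, n = 4) in young naive cells. Young asbestos Siglec F-high cells had 195 ± 68.5 CPM (n = 4), or 226 ± 37.5 CPM (n = 3) without the outlying library, which held 103 CPM. The other groups had means of 227 to 265 CPM. Groups of Txnrd1 overlapped in every comparison and none was called. Its age log2 fold change after asbestos in Siglec F-high cells was 0.43 with 24 libraries and 0.23 with 22.

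Srxn1 (ENSMUSG00000032802, chromosome 2, 152105516 to 152111376, plus strand) was at 52.8, 45.6, 41.2 and 44.0 CPM in young naive libraries. In old naive libraries it was at 85.3, 67.0, 50.6 and 61.3 CPM, and the lowest old library lay within the young range. Srxn1 rose with age there by 0.53 ± 0.16 (SE) on the log2 scale, 1.44-fold, with 22 libraries (edgeR adjusted p 0.0390). With 24 libraries the value was 0.53 ± 0.22 (edgeR adjusted p 0.391). The 22-library call was lost in 6 of 22 fits without 1 more library, those without young naive replicates 2, 3 or 4 or old naive replicates 1, 2 or 4, and without old naive replicate 1 the value was 0.38.

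After asbestos the Srxn1 mean was 58.8 ± 15.1 CPM (SD, n = 3) in young and 78.4 ± 13.5 CPM (n = 3) in old Siglec F-high cells with 22 libraries. In Siglec F-low cells it was 74.6 ± 10.7 CPM in young and 92.3 ± 13.9 CPM in old (n = 4 each). The age log2 fold changes were 0.42 (edgeR adjusted p 0.175) and 0.32 (0.259) with 22 libraries, and 0.60 (0.0933) and 0.31 (0.958) with 24. The sort differences were 0.34 in young and 0.23 in old cells with 22, and 0.55 and 0.26 with 24. The asbestos differences of Siglec F-high cells were 0.35 in young and 0.25 in old with 22, and 0.15 and 0.22 with 24. All 7 values were above 0 in both fits, and of these 2 fits edgeR called only the naive age difference, with 22 libraries.

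Prdx1 (ENSMUSG00000028691, chromosome 4, 116685544 to 116700822, plus strand) showed how far 1 library could set a value. Young asbestos Siglec F-high libraries were at 540, 441, 1505 and 422 CPM, and old ones at 505, 537, 271 and 562 CPM. Both extremes were the outlying libraries. The age log2 fold change of these groups was -0.63 (-1.27 to 0.01) with 24 libraries and 0.20 (-0.14 to 0.55) with 22. The young sort difference was -0.19 with 24 and 0.44 (0.12 to 0.77, edgeR adjusted p 0.0694) with 22, where young Siglec F-low libraries were at 792, 694, 516 and 540 CPM. Prdx1 was not called by edgeR in either fit. The genome holds processed copies similar to Prdx1, and a table of counts cannot show how reads shared with them were assigned.

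Sod2 (ENSMUSG00000006818, chromosome 17, 13006846 to 13040063, plus strand), the mitochondrial superoxide dismutase, had its highest means in the Siglec F-low sorts, 110 ± 8.94 CPM in young and 123 ± 15.1 CPM in old cells (SD, n = 4 each). Old asbestos Siglec F-high libraries were at 89.7, 87.6, 72.7 and 101 CPM and old Siglec F-low ones at 124, 105, 121 and 142 CPM, without overlap. Sod2 was higher in old Siglec F-low cells by 0.40 ± 0.12 (SE) on the log2 scale with 22 libraries (edgeR adjusted p 0.0235), and by 0.48 ± 0.19 with 24 (0.193). The 22-library call was lost without old asbestos Siglec F-high replicates 1 or 2 or old asbestos Siglec F-low replicate 4 (edgeR adjusted p 0.0948, 0.109 and 0.100).

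In young asbestos cells Sod2 was at 91.5, 82.2 and 85.3 CPM in Siglec F-high libraries, with 174 CPM in the outlying one, and at 102 to 121 CPM in Siglec F-low libraries. That difference was 0.35 (0.11 to 0.59, edgeR adjusted p 0.0505) with 22 libraries and 0.02 with 24. The monocyte-derived marker sum moved with the same sort, at 4430 to 4859 CPM in old Siglec F-low and 815 to 1510 CPM in old Siglec F-high libraries. So did the alveolar macrophage marker sum, at 51970 to 66460 and 15820 to 39430 CPM, where the outlying library held the 815 and the 15820 CPM. Most of that sum is Chil3, and the 8 alveolar macrophage markers did not move together. Between the old sorts edgeR called Chil3 higher with 24 libraries (4.30% of all genes called), and Chil3 and Fabp4 with 22 (11.6%). Siglecf was called lower in both fits. The part of either sum in the Sod2 difference was not tested. Young naive cells held the lowest Sod2 mean, 69.7 ± 7.94 CPM (SD, n = 4), at 65.1 to 81.5 CPM. All 4 young asbestos Siglec F-high libraries lay above that range. The difference was 0.64 ± 0.19 on the log2 scale (SE, edgeR adjusted p 0.0872) with 24 libraries and 0.31 ± 0.11 (0.136) with 22, uncalled in both. DESeq2 and limma voom called it (adjusted p 0.0306 and 0.0138), and so did edgeR with 24 libraries less young asbestos Siglec F-high replicate 2 or replicate 4. The interval of the naive age difference was 0.02 to 0.46 with 22 libraries (edgeR adjusted p 0.190) and -0.15 to 0.63 with 24.

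The young naive libraries enter both the naive age and the young asbestos comparison. The summed epithelial markers were at 60.9, 181, 148 and 154 CPM in young naive and 163 to 200 CPM in old naive libraries, and the groups overlapped. Epcam had the highest median of these markers over the 24 libraries, 75.4 CPM, followed by Sftpc at 7.50 CPM. The part of these markers in the naive age values was not tested.

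Members differed in which library of a group held their highest level. In the 22 libraries, Txnrd1 and Srxn1 had their highest level in the same library in 6 of 6 groups, and Nfe2l2 shared that library with Txnrd1, Srxn1 and Gclm in 5 of 6. Prdx1 and Gsr shared it in 5 groups, as did Gclm and Sod2. Keap1 shared it with Nfe2l2 in 0 groups, but this was not particular to that pair. Keap1 also shared it in 0 groups with Gclm, Gclc, Txnrd1, Srxn1, Prdx1 and Sod2, and in 1 with Nqo1 and with Gsr. Apart from those of Keap1, these pairs are named because they shared it most often among all pairs of members. Over the 22 libraries the Pearson r of log2 CPM was 0.908 for Txnrd1 and Srxn1 and 0.382 to 0.528 for the named Nfe2l2 pairs other than Keap1. It was 0.487 for Prdx1 and Gsr, but -0.201 for Gclm and Sod2. Members of a library share its depth and scaling, so these counts and correlations are a description.

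The genes whose log2 CPM correlated best with Nqo1 over the 22 libraries were Pcca (Pearson r 0.881), Gm38248 (0.880), Osbpl1a (0.874), Myrf (0.863) and Lipn (0.859). Over 24 libraries these r fell in a range of -0.19 to 0.37. With Nfe2l2 they were Slc30a1, a zinc exporter (0.816), Plek (0.803), Ptbp2 (0.767), Thap6 (0.762) and Uap1 (0.757), and over 24 libraries 0.467, 0.624, 0.167, 0.188 and 0.712. No member was among either 5. The libraries share groups and scaling, and the lists are a description of the most alike of all tested genes.

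A wider list held 50 other genes of NRF2 regulation, glutathione, thioredoxin, NADPH supply, heme and iron handling, and superoxide removal, of which 48 were tested. With 24 libraries edgeR called 3 higher and 0 lower in old naive cells, where it called 2.03% of all genes in either direction, and 2 higher and 0 lower in old asbestos Siglec F-high cells (4.76%). It called 1 higher after asbestos in young cells (1.90%), 3 higher in young Siglec F-low cells (4.99%), and 0 in the other 3 comparisons. With 22 libraries it called 7 higher in old naive (8.03% of all genes), 5 higher in old asbestos Siglec F-high (7.32%), and 2 higher and 1 lower in old Siglec F-low cells (7.21%). After asbestos it called 3 higher in young (5.06%) and 2 higher in old cells (4.12%). Between sorts it called 7 higher and 1 lower in young (12.0%) and 0 higher and 2 lower in old cells (11.6%). The list's median log2 fold change was -0.11 to 0.26 with 24 libraries and -0.013 to 0.155 with 22.

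Ephx1, a microsomal epoxide hydrolase, was the wider gene called most often. It was at 10.6, 14.9, 12.0 and 13.98 CPM in young naive and 32.2, 29.9, 27.0 and 28.4 CPM in old naive libraries, without overlap. Ephx1 rose with age by 1.19 ± 0.19 (SE) in naive cells (edgeR adjusted p 0.000435) and by 1.04 ± 0.19 in asbestos Siglec F-high cells (0.00206) with 24 libraries. It was also higher in young Siglec F-low than Siglec F-high cells, by 1.02 ± 0.19 (edgeR adjusted p 0.00140). With 22 libraries these values were 1.20, 0.98 and 0.85, all called, and edgeR called it in 6 of the 7 comparisons.

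Me1, the malic enzyme that makes NADPH, held 2 to 7 counts (0.0972 to 0.446 CPM) in young naive and 10 to 39 counts in old naive libraries. It rose with age by 2.38 ± 0.59 (SE, edgeR adjusted p 0.0318) in naive and 1.92 ± 0.55 (0.0466) in asbestos Siglec F-high cells with 24 libraries, and by 2.39 and 1.38 with 22, both called. Sod3, the extracellular superoxide dismutase, held 3 to 16 counts in young naive and 25 to 81 in old naive libraries, and rose by 2.57 ± 0.67 (edgeR adjusted p 0.0445) with 24 and 2.58 ± 0.52 (0.00218) with 22 libraries. These are low counts, and both genes stayed under 6 CPM in every library.

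Slc7a11, the cystine transporter that feeds glutathione synthesis, was at 7.16 to 14.5 CPM in young naive and 18.0 to 40.4 CPM in young asbestos Siglec F-high libraries. It rose by 1.53 ± 0.39 (SE, edgeR adjusted p 0.0458) with 24 libraries and by 1.51 ± 0.41 (0.0303) with 22. In old cells the difference was 1.57 (edgeR adjusted p 0.0686) with 24 and 1.35 (0.0488) with 22 libraries, and the groups overlapped, with 38.0 CPM in 1 old naive library. The Siglec F-low groups had the highest Slc7a11 means, with libraries at 49.9 to 82.1 CPM in young and 53.5 to 128 CPM in old. Old asbestos Siglec F-high libraries reached 78.5 CPM, and 90.7 CPM in the outlying one, from 111 counts.

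Ftl1, the ferritin light chain that stores iron, was at 3643 to 4666 CPM in young asbestos Siglec F-high and 5521 to 7146 CPM in young Siglec F-low libraries. Ftl1 was higher in Siglec F-low by 0.63 ± 0.18 (SE, edgeR adjusted p 0.0382) with 24 libraries and 0.59 ± 0.11 (0.000853) with 22. Gstm1, a glutathione transferase, was at 176 to 244 CPM and 293 to 429 CPM in the same groups, a difference of 0.74 ± 0.21 (edgeR adjusted p 0.0465) with 24 and 0.72 ± 0.20 (0.0163) with 22 libraries. Both genes have close relatives in the genome, so the assignment of shared reads is uncertain. In old cells the sort differences with 22 libraries were 0.10 for Ftl1 and -0.11 for Gstm1, and with 24 libraries 0.29 and 0.05, all uncalled. The age by sort interaction was not called for either gene (edgeR adjusted p 0.540 and 0.542 with 22, 0.762 and 0.761 with 24).

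**Figure D3:**
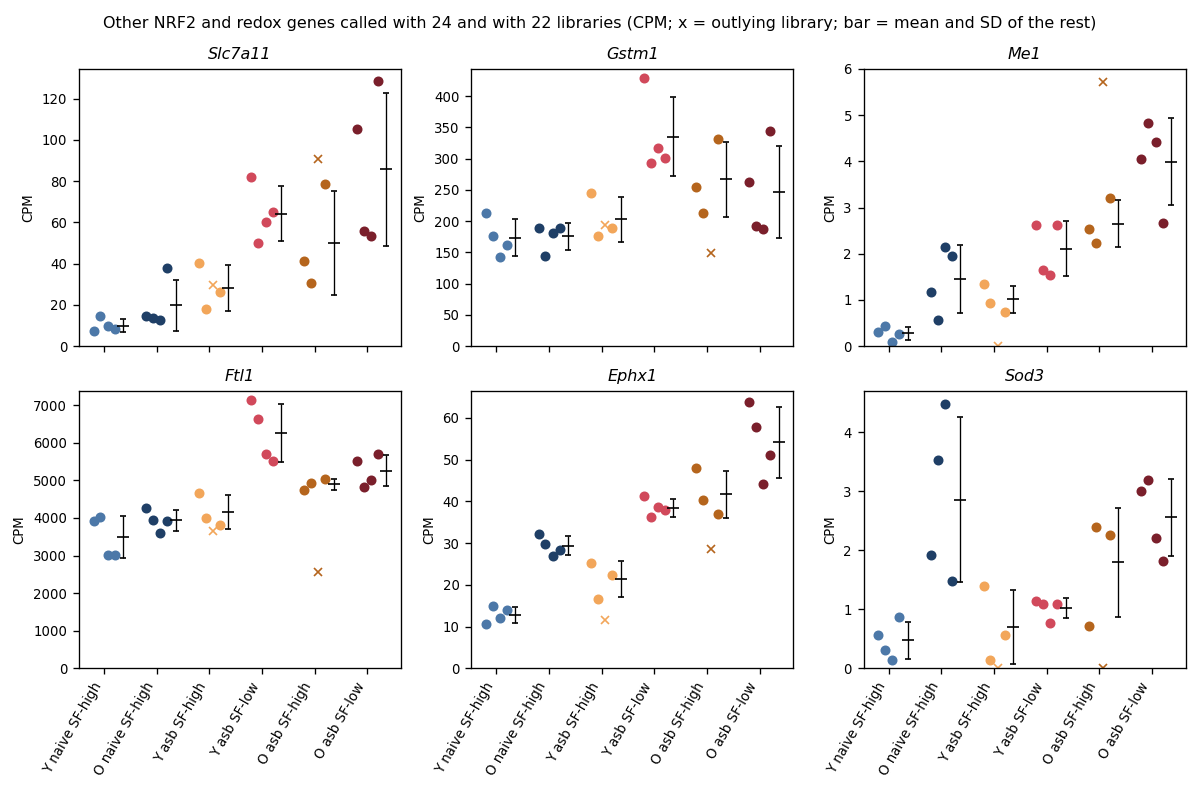
CPM (y axis, from 0) by library for the 6 wider redox genes called in both fits, in the 6 groups (x axis; Y young, O old, asb asbestos, SF Siglec F). Points are libraries, crosses the outlying ones, bars the mean and SD of the rest. Old naive Ephx1 libraries, at 27.0 to 32.2 CPM, lie above all young naive ones, at 10.6 to 14.9 CPM.

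The NADPH oxidase is an enzyme complex that makes superoxide. None of its 6 listed genes was called with 24 libraries, where 0.780 to 4.99% of all genes were called over the 7 comparisons. With 22 libraries edgeR called 4 higher in old naive cells, Cybb, Ncf1, Ncf4 and Rac2, where 8.03% of all genes were called, and 3 higher in old asbestos Siglec F-high cells, Cybb, Ncf1 and Ncf4 (7.32%). Their log2 fold changes in naive cells were 0.41, 0.41, 0.32 and 0.28 (edgeR adjusted p 0.0490, 0.00113, 0.0121 and 0.0477). Ncf1 was also higher in old Siglec F-low cells, by 0.34 (7.21% of all genes called), and 3 genes, Cyba, Ncf1 and Ncf4, were higher in young Siglec F-low than Siglec F-high cells (12.0%). Those young sort differences were 0.42, 0.28 and 0.32 with 22 libraries. With 24 they were -0.49, 0.03 and 0.52, so the sign of Cyba turned with the 2 outlying libraries. These genes were named because the counts are small, after their values were seen.

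Of 10 genes that NF-kB is known to induce, edgeR called 0 with 24 libraries. With 22 it called 2 higher, Icam1 (0.47) and Nfkbie (0.76), and 1 lower, Birc3 (-0.36), in old naive cells, where 8.03% of all genes were called. Cxcl2 was higher (0.63) in old Siglec F-low cells (7.21%), and Bcl3 was higher in Siglec F-low cells of both ages, by 0.71 in young (12.0%) and 0.69 in old (11.6%). These genes too were named after their values were seen.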

How the data were processed

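The authors deposited 1 table of raw counts per Ensembl mouse gene, whole numbers that had not been scaled, with 43430 IDs and 24 columns. Per the submitters' processing notes the tools were bcl2fastq 2.19.1, FastQC, Trimmomatic 0.36, STAR 2.6.0 and HTSeq 0.11.2 with build mm10. The annotation release and the strand setting are not given in the sources used here. Per the labels, RNA was poly(A)-selected and sequenced from NEBNext Ultra libraries. Columns were matched to samples by title, and 42462 IDs had a symbol and a GENCODE M21 position (GRCm38).

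Genes were kept with filterByExpr by group (minimum count 10, minimum total 15), which left 13467 genes with 24 libraries and 13629 with the 22 that did not stand apart. The counts were fitted in edgeR 4.0.16 (R 4.3.3) with TMM scaling and 1 term per group, and levels are CPM, counts per 1000000 of the TMM-adjusted library size. Tests were quasi-likelihood F tests with Benjamini-Hochberg adjustment over all genes, and calls were made below 0.05. The SE is the log2 fold change over the square root of F, and intervals are 95%. DESeq2 1.42.0 and limma 3.58.1 were alternatives. The fit was also run on simulated counts that had the same spread for every gene and no library made to stand apart. That run therefore does not speak to the outlying libraries or to changes smaller than those simulated.

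The members, lists and tests were chosen with earlier results of these data known. All members were named, and genes of the wider lists were named if called in at least 1 comparison with 24 and with 22 libraries, at most 4 per list and comparison in order of p. The NADPH oxidase and NF-kB genes fall outside that rule and were named after their values were seen, because their counts are small. The 5 genes most correlated with Nqo1 and with Nfe2l2 (log2 CPM, prior count 2) were also named. The edgeR fits of 24 and of 22 libraries did not treat replicate numbers as pairs, and a replicate block was fitted only as an alternative. That block joined the libraries of the same number over all groups. It thus tied young to old and naive to asbestos libraries, which are different mice, and is not a pairing of the asbestos sorts. Whether the numbers could be pairs was judged by every same-number correlation of deviations from the group means being over 0.1. That held for no pair of groups with 24 libraries and with 22 only for the old asbestos sorts (0.150, 0.189 and 0.205). It comes from the data, not from the labels.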

Additional observations from a re-analysis of the deposited data

Results flagged for a closer look

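Of 96 groups of 4 libraries examined for the 10 members and the 6 wider genes, 12 held 1 library far from the other 3, where chance marks about 1 in 20. The 2 outlying libraries account for 5 of them. In young asbestos Siglec F-high replicate 3 these were Nqo1 at 7.06 CPM (1.75 to 2.29 in the others), Prdx1 at 1505 CPM (422 to 540), Gsr at 745.7 CPM (381 to 407) and Sod2 at 174 CPM (82.2 to 91.5). In old asbestos Siglec F-high replicate 3, Ftl1 was the lowest, at 2564 CPM (4733 to 5024). The same young library held 12528 genes with a count and 220 CPM of summed epithelial markers. Replicates 1, 2 and 4 of its group held 83.4, 95.1 and 92.2 CPM of these markers. Epcam had by far the highest median of them over the 24 libraries, 75.4 CPM, so the sum is mainly 1 gene. Krt8 had no counts in 11 libraries. The part of the gene number or of this sum in these values was not tested.

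The other 7 lay in libraries that did not stand apart. Nfe2l2 was at 307.0 CPM in old naive replicate 1 (207 to 222 in the others), the library that was also highest in its group for Txnrd1 and Srxn1. Srxn1 was at 90.4 CPM in young asbestos Siglec F-low replicate 1 (66.7 to 70.7), and Gstm1 at 429 CPM in the same library (293 to 316). Gclm was at 45.0 CPM in old asbestos Siglec F-low replicate 4 (39.7 to 40.3). Sod2 was at 81.5 CPM in young naive replicate 2 (65.1 to 66.5). Slc7a11 was at 38.0 CPM in old naive replicate 4 (12.5 to 14.6). Sod3 was the lowest, at 0.767 CPM, in young asbestos Siglec F-low replicate 3 (1.08 to 1.15).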

How the results depend on the processing

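The number of members called moved with the 2 outlying libraries, with the tool and with the replicate block. In old against young naive cells it was 0 with 24 libraries, 2 with 22, 1 with DESeq2, 3 with limma voom and 3 with the replicate block on 22 libraries, and 0 to 2 with 1 library left out. In old against young asbestos Siglec F-high cells it was 0, and 1 with limma voom and with the replicate block on 24 or 22 libraries (0 to 2 with 1 library left out). In old against young Siglec F-low cells it was 0, and 1 with 22 libraries, limma voom and the replicate block on 22 (0 to 1). In asbestos against naive young cells it was 1, and 2 with 22 libraries and with the replicate block on 22, 3 with DESeq2 and limma voom, and 0 with the groups compared alone (0 to 3). Between young sorts it was 0, 1 with limma voom and with the replicate block on 24, and 3 with the replicate block on 22 (0 to 2). Between old sorts it was 0, and 1 with 22 libraries, limma voom and the replicate block on 22 (0 to 1). It was 0 under every alternative for asbestos against naive old cells and both interactions. For DESeq2, limma voom, the replicate block and fits with 1 library left out, the share of all genes called is not given beside these counts. They describe only how the calls of members moved. The replicate block tied same-number libraries of different ages and treatments, so its calls do not come from a pairing by mouse.

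Under the replicate block on 22 libraries the young sort difference of Prdx1 was 0.50 and called (edgeR adjusted p 0.00957), opposite in sign to the -0.19 of 24 libraries, and with 1 library left out of either fit it ran from -0.38 to 0.56. Of 5040 member values under alternatives, 4277 kept their sign and their side of the threshold, 608 changed sign with no call on either side, 140 gained a call, 10 lost one and 5 reversed. Leave-one-out of the 22 libraries was added after the data were seen. In all genes the calls went from 273, 641, 174, 256, 105, 672 and 579 in the 7 comparisons with 24 libraries to 1094, 997, 983, 690, 562, 1638 and 1578 with 22. The low counts of Nqo1, Me1 and Sod3 limit what can be said of them.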
